A study of Homo sapiens with 9 samples.

Results

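The 3 arrays of T47D-VC1, the vector control line of the study, were described on their own, without a contrast. They are 3 of the 9 arrays of the series and carry the titles T47D_VC1, T47D_VC1_2 and T47D_VC1_3, called arrays 1, 2 and 3 here. T47D is an established human breast cancer cell line of the luminal, estrogen receptor-positive kind. T47D-VC1 (genotype, control) carries the empty vector, which the methods name as pTARGET, and the other 6 arrays are of T47D lines that express the long noncoding RNA PTH-AS, in full length or incomplete, from the same vector. The methods describe stable clones selected with antibiotic, G418 for this vector, so the arrays describe a selected transfected line and not the parental population. How the control line was picked is not given in the sources used here. Nothing in the labels or the methods says whether the 3 RNA samples came from separate cultures, so the spread between them may be technical. RNA was hybridised in 1 color to Agilent SurePrint G3 Human Gene Expression v3 arrays, whose probes are 60 bases long. The values are the intensities that the authors deposited after quantile normalization over all 9 arrays, in arbitrary fluorescence units, and they are given per array or as the mean log2 value ± SD over the 3 arrays (n = 3).

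Mammary ducts are lined by an inner layer of luminal cells, which make the simple keratins, E-cadherin and the steroid hormone receptors, and by an outer layer of basal or myoepithelial cells, which make the stratified keratins, p63 and contractile proteins. Luminal identity is kept by transcription factors such as GATA3, FOXA1 and ESR1, the last being estrogen receptor alpha, a ligand-activated transcription factor that drives proliferation in this class of tumor. Progesterone receptor is itself a target of estrogen receptor alpha and is used in the clinic as a sign of its activity.

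A gene was called present when 1 of its probes was well above background, as Feature Extraction software marks it, on all 3 arrays. It was called not well above background when no probe was so marked on any array, which sets a limit on the probe and does not show that the transcript is missing. Each gene was read from its probe with the highest mean log2 value. Of 43395 genes or named transcripts, 19317 were present (44.5%), 21604 were not well above background (49.8%), and 2474 were well above background on some arrays only, called mixed here. Among 18607 protein-coding genes, 12968 were present (69.7%), 4856 were not well above background (26.1%), and 783 were mixed. Array 1 lay apart from arrays 2 and 3, as described at the end, and without it 19717 genes were present, among them 497 members of the lists used below in place of 485. The count also rose without array 2, to 19898, and without array 3, to 19422, because a call then needs only 2 arrays. Of 3796 RefSeq long noncoding RNA genes, 1226 were present (32.3%), and their median value was 110.0, against 800.5 for the present protein-coding genes. A further 8756 genes carried long noncoding RNA names that the RefSeq table did not hold, of which 18.6% were present. Pseudogenes were present in 390 of 773 cases, and a probe to a pseudogene can also bind the transcript of its parent gene.

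**Figure D1:**
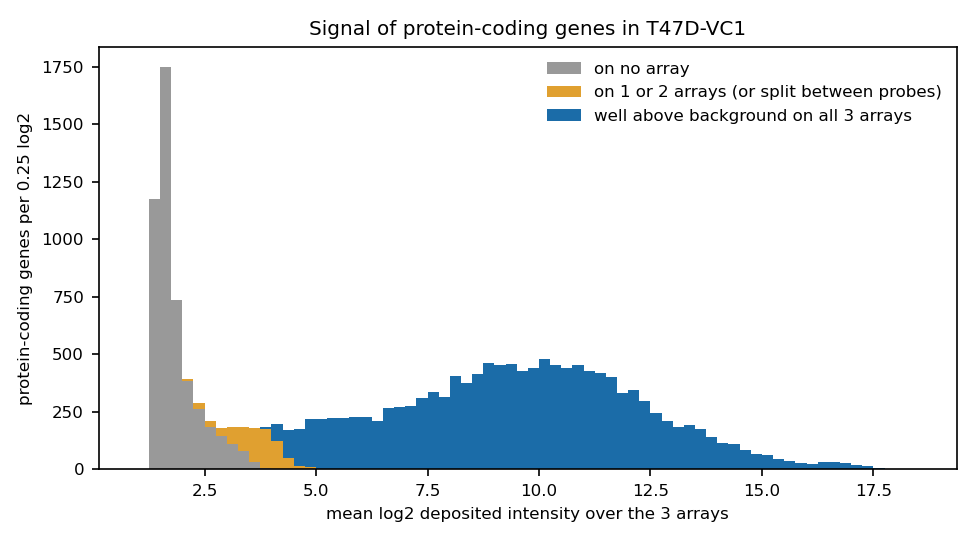
Mean log2 deposited intensity of the 18607 protein-coding genes over the 3 arrays (horizontal axis), as stacked counts per 0.25 log2, colored by the number of arrays on which the gene was well above background. The 4856 genes not well above background form a narrow peak around a median of 1.66, and the 12968 present genes spread widely around a median of 9.64.

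Values of the present genes ran from 13.8 to 302437, with a median of 421 and a 90th percentile of 7022. The highest value of a gene not well above background was 15.3. The 25 present genes with the highest signal held 6.49% of the summed signal, the first 100 held 19.1% and the first 1000 held 63.3%. The order of genes within an array is an order of probe signals, which depends on each probe's binding as well as on the amount of transcript, so it does not rank abundance.

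The highest signal of a named gene was that of KRT19, a simple keratin of luminal epithelium, which read 302437, 302437 and 302437 on arrays 1, 2 and 3. It held the top rank on every array, and quantile normalization gives equal ranks equal values, so its SD of 0 is made by that step. Of the 25 named genes with the highest signals, 12 encoded ribosomal proteins. RPL13, the first of them, read 195327, 250238 and 224909. Of the other named protein-coding genes in the first 25, HSPB1, a small heat shock protein, read 191752, 191752 and 181024. SERPINA6, which encodes corticosteroid-binding globulin, the carrier of cortisol and progesterone in plasma, read 224909, 161807 and 156332, highest on array 1. XBP1, a transcription factor of the unfolded protein response and of luminal cells, read 171177, 167316 and 163347, nearly level across arrays (mean log2 17.35 ± 0.03, SD, n = 3). MIF, a cytokine, read 151218, 163347 and 158114. The first 25 also held EEF1A1, ACTB, the mitochondrial genes ATP6 and CYTB, the ribosomal RNA gene RNA28SN5, and a pair of transcripts known only by the names in the files, lnc-WWC2-1 and ENST00000491837. A probe with no name in the files or the table had the second highest signal and is not described.

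The promoters of XBP1, SERPINA6, PGR and KRT5 are shown because they mark the range of promoter composition met below: a very bright gene with many CpG dinucleotides, a very bright gene with few, the steroid receptor gene with the highest signal, and a basal keratin not well above background. Each run holds 250 bases before and 50 after the gene start annotated in RefSeq on build GRCh38.p14, read along the gene from 5′ to 3′, and capitals mark CpG dinucleotides. Other start sites of the genes were not examined.
XBP1 (chr22:28800520-28800819, minus strand): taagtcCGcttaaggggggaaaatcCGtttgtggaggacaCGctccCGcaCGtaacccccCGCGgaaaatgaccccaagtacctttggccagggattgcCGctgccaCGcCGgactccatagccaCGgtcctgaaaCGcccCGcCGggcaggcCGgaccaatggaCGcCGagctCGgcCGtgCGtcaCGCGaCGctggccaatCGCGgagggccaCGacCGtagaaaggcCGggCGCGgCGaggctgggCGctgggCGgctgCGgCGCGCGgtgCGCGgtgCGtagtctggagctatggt
SERPINA6 (chr14:94323287-94323586, minus strand): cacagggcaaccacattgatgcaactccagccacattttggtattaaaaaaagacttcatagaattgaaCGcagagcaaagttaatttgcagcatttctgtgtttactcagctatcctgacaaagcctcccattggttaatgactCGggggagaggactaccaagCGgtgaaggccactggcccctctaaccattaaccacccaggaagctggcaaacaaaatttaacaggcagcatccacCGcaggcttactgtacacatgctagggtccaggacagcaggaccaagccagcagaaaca
PGR (chr11:101129028-101129327, minus strand): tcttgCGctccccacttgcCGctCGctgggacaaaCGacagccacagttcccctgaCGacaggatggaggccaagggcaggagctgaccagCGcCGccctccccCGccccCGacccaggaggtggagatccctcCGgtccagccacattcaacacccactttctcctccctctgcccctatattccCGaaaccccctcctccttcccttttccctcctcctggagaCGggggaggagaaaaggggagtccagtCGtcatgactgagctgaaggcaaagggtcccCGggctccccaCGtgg
KRT5 (chr12:52520345-52520644, minus strand): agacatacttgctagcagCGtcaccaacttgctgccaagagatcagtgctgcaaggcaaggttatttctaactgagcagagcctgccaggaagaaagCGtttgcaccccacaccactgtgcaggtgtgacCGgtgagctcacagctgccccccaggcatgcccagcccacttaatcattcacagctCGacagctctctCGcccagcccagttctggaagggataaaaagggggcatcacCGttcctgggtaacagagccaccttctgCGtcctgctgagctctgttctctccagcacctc
These windows of 300 bases hold 40 CpG dinucleotides for XBP1, 4 for SERPINA6, 15 for PGR and 7 for KRT5.

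Over all 14921 protein-coding genes with a promoter in the RefSeq table, the median window held 23 CpG dinucleotides. The median was 26 for the 10592 present genes and 7 for the 3738 genes not well above background. A ratio of observed to expected CpG above 0.6 together with a GC content above 50% was met by 77.5% of the present genes, 33.1% of those not well above background and 65.1% of all. Within the present genes the share was 63.2% among the 2648 with the lowest signal and 84.3% among the 2648 with the highest. On either strand, the letters TATAAA were found in 6.15% of the promoters of present genes, in 18.1% of those not well above background and in 9.36% of all. GGGCGG, the core of a GC box, was found in 68.9%, 36.2% and 59.9%, and CCAAT in 36.5%, 35.6% and 36.4%. TGTTTAC, the letters bound by forkhead factors, was found in 2.21%, 3.48% and 2.55%, among them the SERPINA6 promoter above. The keratin genes stood apart from the general pattern: none of the 34 with a window met the CpG criterion, 58.8% held TATAAA, and keratins of both kinds, present and not, were among them. The lack of CpG was not particular to keratins. None of the 15 milk and mammary secretory genes with a window, described below, met the criterion either, and 20% held TATAAA. Such matches describe letters in a window and are not binding sites.

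The luminal epithelial list was present in full, 21 of 21 genes, against 69.7% of all protein-coding genes. Its median mean log2 value was 14.02, and the median over all protein-coding genes on the array was 8.0. Like all lists used here, it was chosen with earlier results of these data known. Detection of a list in full is therefore a description and no independent evidence of identity. The keratins that pair in simple epithelium were bright: KRT18 read 108158, 89779.8 and 90738 and its partner KRT8 read 26735, 19294 and 19515. KRT7, another simple keratin, read 16874, 20036 and 19556. In each of KRT18 and KRT8 array 1 lay above the other arrays, and in KRT7 it lay below them.

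The KRT19 probe lies at chr17:39679918-39679977 on hg19, the build of the array design, and the brightest KRT18 and KRT8 probes lie on chromosome 12. All 3 KRT8 probes were present, yet they differed widely, with 1046, 1125 and 1035 from the second and 787, 534 and 542 from the third. Epithelial junction genes were present as well. CDH1, which encodes E-cadherin, read 18186, 16382 and 16874. EPCAM, an epithelial adhesion molecule, read 16305, 16924 and 18302. The tight junction genes CLDN4 and CLDN3 read 82708, 81369 and 74038 (CLDN4) and 44934, 43689 and 41784 (CLDN3), although a second CLDN4 probe was not well above background. SPINT2 and PRSS8, an inhibitor and a protease of the epithelial surface, read 60737, 53473 and 50682 (SPINT2) and 17458, 16994 and 15445 (PRSS8). These genes varied little between arrays, with SDs from 0.08 to 0.13 on the log2 scale for CDH1, EPCAM, SPINT2 and PRSS8. MUC1, a membrane mucin, read 23426, 13845 and 13166, with array 1 apart from the others (mean log2 13.99 ± 0.46, SD, n = 3). The splicing regulators of epithelial cells, ESRP2 and ESRP1, read 6732, 8312 and 9380.3 (ESRP2) and 706, 1120.1 and 1134 (ESRP1). The lowest of the list was ELF3, an epithelial ETS factor, at 986, 538 and 507.

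Of the 15 luminal transcription factors, 13 were present (86.7%, against 69.7% of all protein-coding genes). GATA3, which specifies luminal fate, read 30014, 21696 and 22735. FOXA1, the pioneer factor that opens chromatin for steroid receptors, read 9015, 9859 and 9843. TRPS1, a GATA-type repressor, read 17578, 13973 and 14475. ELF5, a factor of the alveolar luminal lineage and of the response to prolactin and progesterone, read 20667, 12559 and 12702. MYB, SPDEF and TFAP2C were also above 1000 on every array, while TBX3 at 57.2, 60.6 and 65.7 and KLF5 at 63.8, 48.8 and 51.4 were the lowest present members. TOX3 and TFAP2B were not well above background, each by its only probe.

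Of 17 milk and mammary secretory genes, 7 were present, a share of 41.2% against 69.7% of all protein-coding genes. They were AGR2, TFF3, PIP, AGR3, AZGP1, TFF1 and the milk lipase CEL. AGR2, a disulfide isomerase of secretory cells, read 40015, 70137 and 64572. TFF3, a trefoil peptide, read 70852, 40769 and 40158, and the first array was the lowest for AGR2 and the highest for TFF3. PIP, prolactin-induced protein, read 42271, 52305 and 48743. AZGP1, a secreted glycoprotein, read 4499, 2321 and 2302. The milk genes CSN1S1, CSN2, CSN3, LALBA and LTF were not well above background, nor were BTN1A1, MUCL1 and SCGB2A1. The mammaglobin genes SCGB2A2 and SCGB1D2 were well above background on a part of the arrays only, at 25.4, 6.76 and 3.004 (SCGB2A2) and 27.03, 6.18 and 2.68 (SCGB1D2). The list's median over all members was 2.94, against 8.0 over all protein-coding genes.

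Of 18 basal and myoepithelial markers, 6 were present, 2 were present on a part of the arrays and 10 were not well above background on any. The share present was 33.3%, against 69.7% of all protein-coding genes, and 10 members were present when Feature Extraction's flag for a positive and significant signal was used instead. Those not well above background were the keratins KRT5 (promoter above), KRT14, KRT17, KRT6A and KRT6B, the basal master regulator TP63, SOX10, CAV1, SFRP1 and the smooth muscle myosin MYH11. The present members were led by CDH3, P-cadherin, at 1764, 2345 and 2141. ACTA2, smooth muscle actin, read 374, 832 and 703, lowest on array 1. FOXC1, OXTR and KRT16 were also present, the last at 27.1, 17.2 and 20.7, close to the lowest values of present genes. NGFR read 3.001, 23.03 and 104.1, a range wider than that of any other member, and was not present on all arrays. The list's median was 2.87, against 8.0 over all protein-coding genes.

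Of 20 mesenchymal and fibroblast markers, 16 were not well above background (80%), against 26.1% of all protein-coding genes. The other 4 were present, and 9 were with the positive and significant flag or with the 99th percentile of negative control spots as the limit. Those not well above background included VIM, which encodes vimentin, the N-cadherin gene CDH2, FN1, SPARC, DCN, LUM, the fibroblast receptors PDGFRA and PDGFRB, and the repressors of E-cadherin ZEB1, ZEB2 and SNAI2. The 4 present were SNAI1 at 698, 371 and 359, COL1A1 at 366, 326 and 356, TWIST1 at 281, 296 and 262 and THY1 at 130.1, 95.3 and 95.5. SNAI1 and TWIST1 are regulators of epithelial-mesenchymal transition, and TWIST1 was present by 2 of its 4 probes.

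Of 14 blood and endothelial markers on the array, 7 were present, 1 was mixed and 6 were not well above background. The share present was 50%, against 69.7% of all protein-coding genes, and 4 members were present under a stricter filter on dim probes. Of the present members, CD8A, CD14, CDH5, VWF, CD3D and PTPRC stayed under 70 on every array, and PTPRC, the pan-leukocyte antigen, was present by 1 of 5 probes at 20.8, 22.6 and 18.1. The defining genes PECAM1, MS4A1, CD3E, HBB and KDR were not well above background. In bulk RNA a small number of cells of a type and a low amount of RNA per cell cannot be told apart, and whether these signals came from other cells was not tested.

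Transcription factors of other tissues gave 9 present, 3 mixed and 16 not well above background of 28. The share present was 32.1%, against 69.7% of all protein-coding genes, and 14 were present with the positive and significant flag. One of the 9 stood far above the rest. NKX2-5, known as a regulator of heart development, read 37232, 31721 and 32567 from its only probe, at chr5:172659138-172659197 on hg19, with a mean log2 value of 15.04 ± 0.12 (SD, n = 3). The next were PAX6, an eye and brain regulator, at 335, 311 and 280.1, from 2 of 4 probes, and the intestinal factor CDX1, from 1 of 3 probes, at 239, 176 and 182. The other present members were MITF, PAX2, GATA4, MYOG, SOX2 and WT1, with GATA4 present by 2 of 4 probes. MYOD1, MYF5, NEUROD1, OLIG2, HNF4A, NKX2-1, PAX8, GATA1, CDX2 and NANOG were not well above background.

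**Figure D2:**
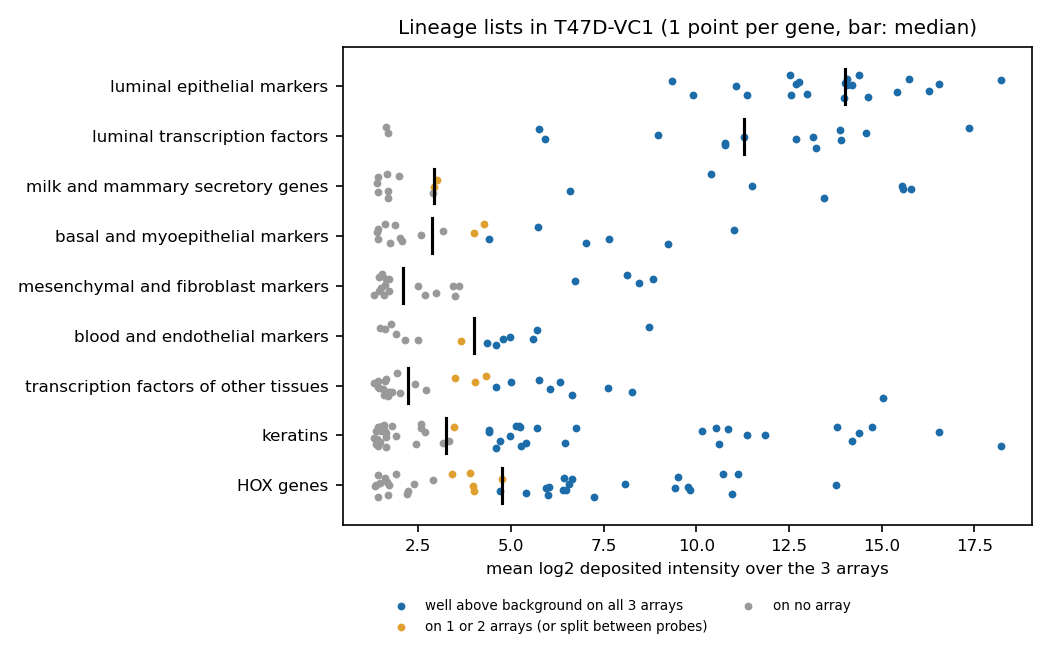
Mean log2 deposited intensity over the 3 arrays (horizontal axis) for each gene of 9 lists, 1 point per gene, colored by detection, with a bar at the median of the list. The luminal lists have medians of 14.02 and 11.28. The milk and mammary secretory, basal, mesenchymal and other-tissue lists have medians under 3. NKX2-5 lies far to the right of the other points of the other-tissue list.

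Among all 54 keratin genes on the array, 25 were present (46.3%, against 69.7% of all protein-coding genes), 1 was mixed and 28 were not well above background. Besides the simple keratins above, KRT10 read 27200.3, 27890.1 and 26536 and the hair-type keratin KRT81 read 17774, 11809 and 13831. KRT81, KRT83 and KRT86 are close relatives in sequence, so a probe to one may bind another. KRT23 read 1828, 5344 and 5052 and was the keratin with the largest relative drop on array 1 among those above 1000. KRT15, a keratin of progenitor cells in stratified epithelium, read 2132, 2378 and 3638. Another 13 present keratins were all under 130 on each array.

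Of 29 cadherin and catenin genes, 12 were present (41.4%, against 69.7% of all protein-coding genes), among them the plakoglobin gene JUP at 29231, 25493 and 24274, CTNNA1 at 8531, 8938 and 9171, CTNNB1, which encodes beta-catenin, at 4859, 4678 and 4316 and CTNND1. Apart from CDH1 and CDH3, only CDH22 among the cadherins exceeded 1000, at 2392, 1750.0 and 2109.7. CDH11, CDH6, CDH13 and CDH17 were not well above background. Of 22 claudins, 11 were present (50%, against 69.7% of all protein-coding genes). After CLDN4 and CLDN3 the next were CLDN7 at 5360.2, 6484 and 6155 and CLDN1 at 697, 1085 and 1111. Of 23 matrix metalloproteinases, 9 were present (39.1%, against the same 69.7%). MMP17 was the highest at 1399, 1101 and 1296, and MMP9 read 135, 205 and 191. The secreted collagenases and stromelysins MMP1, MMP3, MMP10 and MMP13 and the membrane-type enzyme MMP14 were not well above background.

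Of 39 HOX genes, which encode positional identity and lie in 4 clusters, 20 were present (51.3%, against 69.7% of all protein-coding genes). Of the HOXC genes, 7 of 9 were present and the other 2 were so on a part of the arrays, and of the HOXB genes 7 of 10 were present. Of the HOXA genes 5 of 11 were present. The HOXD cluster gave 1 of 9, HOXD1 at 24.3, 28.4 and 26.2, and the other 8 were not well above background. HOXB2 had the highest signal, 18618, 11777 and 12289, followed by HOXC4 at 2657, 1944 and 2118 and HOXC9 at 2056, 1914 and 1965. HOXB13, HOXA13 and HOXD13 were not well above background.

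Of 48 nuclear receptor genes, 31 were present, 3 were mixed and 14 were not well above background, and 13 had a mean above 1000. The share present was 64.6%, against 69.7% of all protein-coding genes, and the median mean log2 value over the 48 was 6.80, against 8.0. ESR1, the gene of estrogen receptor alpha, read 3689.6, 2514 and 2368 from its brightest probe (mean log2 11.45 ± 0.35, SD, n = 3), which lies at chr6:152423908-152423967 on hg19. Its other 2 probes were also present, at 159, 148 and 150.4 for one and 204, 122 and 128 for the other. The second estrogen receptor gene, ESR2, was not well above background by either of its probes. PGR, the progesterone receptor, whose promoter is shown above, read 17161, 14137 and 14205 from a probe at chr11:100900858-100900917 (mean log2 13.88 ± 0.16, SD, n = 3) and 10124, 8053 and 8209.8 from the other. Array 1 was the highest of the 3 for ESR1 and PGR. Since each receptor was read by its own probe, the values do not say which receptor was the more abundant.

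The glucocorticoid receptor gene NR3C1 read 1199.7, 791 and 724, and the mineralocorticoid receptor gene NR3C2 read 72.5, 56.7 and 55.001. VDR, the vitamin D receptor, read 2396, 2459.8 and 2381, nearly level across arrays. The thyroid hormone receptor gene THRA read 14506, 7692 and 7519, with array 1 well above the other arrays, and THRB read 185, 286 and 275, with array 1 below them. Among the retinoid receptors, RARA, itself estrogen-responsive, read 4674, 3148 and 2996 and RARG read 802, 1056 and 1032, whereas RARB was not well above background by any of 3 probes. The partner receptors RXRA and RXRB read 9427, 8039.8 and 7455 (RXRA) and 769, 853 and 935 (RXRB), and RXRG was well above background on a part of the arrays only.

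Orphan receptors gave the highest signal of the family. NR2F6 read 33366, 28339 and 24615, and the related NR2F2, a regulator of vascular and stromal development, read 5896, 4379.9 and 4654. The estrogen-related receptor ESRRA, which controls mitochondrial genes, read 5394, 4715 and 4589, while ESRRG was not well above background and ESRRB was so on a part of the arrays only. The oxysterol receptors NR1H3 and NR1H2 read 4582, 5070.4 and 5082 (NR1H3) and 441, 513 and 465 (NR1H2). Of the fatty acid sensors, PPARD read 1261, 1325 and 1232 and PPARA read 114, 123 and 113, and PPARG was not well above background by either probe. The immediate-early receptors NR4A2 and NR4A3 stayed under 50, and NR4A1 was not well above background. The liver and steroidogenic receptors HNF4A, NR1H4, NR1I2, NR0B2 and NR5A1 were not well above background either, though NR5A2 read 624, 699 and 657.

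**Figure D3:**
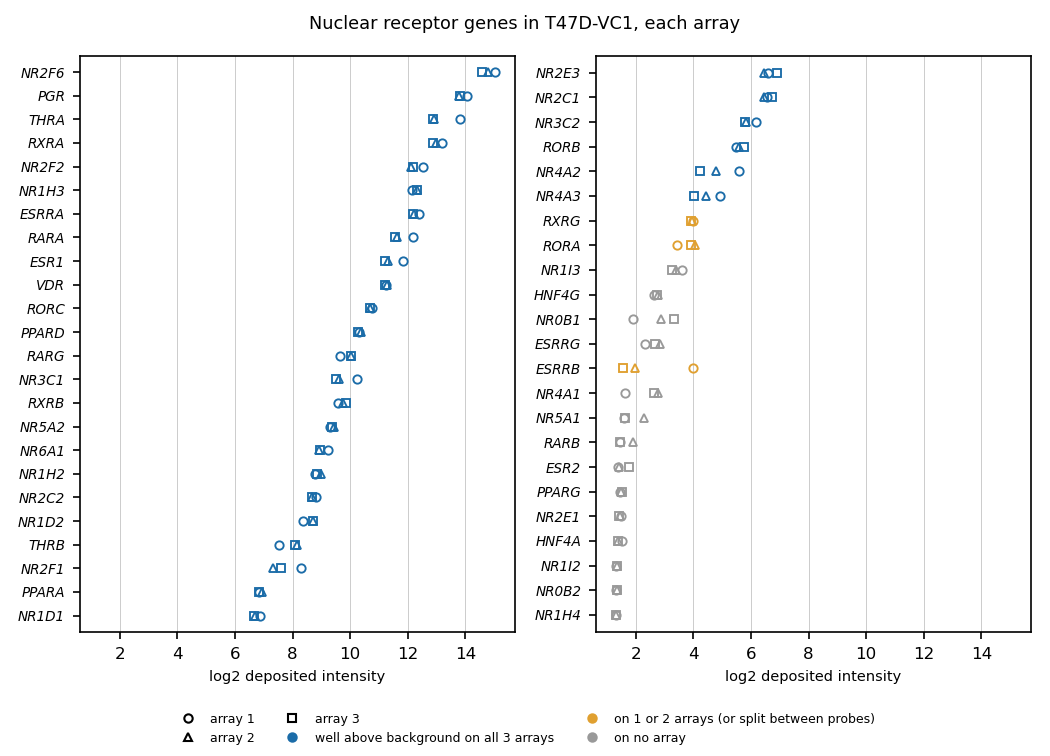
Log2 deposited intensity (horizontal axes) of 47 nuclear receptor genes on arrays 1 (circles), 2 (triangles) and 3 (squares), ordered by mean and colored by detection. NR2F6 and PGR lie at the top and the 14 genes not well above background at the bottom right, and array 1 stands to the right of the other arrays for THRA, RARA and ESR1.

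All 18 coregulator and chaperone genes were present, against 69.7% of all protein-coding genes. The chaperone HSP90AA1 read 119229, 96086 and 109707 and the immunophilin FKBP4, which sits in steroid receptor complexes, read 13466, 12859.5 and 14166. The corepressor NCOR1 read 859.6, 826 and 769.9. Of the p160 coactivators, NCOA3 read 461, 509 and 524, NCOA1 read 609, 469 and 478 and NCOA2 read 32.2, 35.7 and 29.8, the lowest member of the list.

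The estrogen-responsive list was present in full, 20 of 20, against 69.7% of all protein-coding genes. Its median was 12.14, against 8.0 over all protein-coding genes. The list was chosen with earlier results of these data known, so its detection is a description and no independent evidence on the pathway. After XBP1, the highest members were SIAH2, a ubiquitin ligase, at 39756, 23524 and 23083, SERPINA1 at 29295, 19913 and 18992 and the chemokine gene CXCL12 at 40355, 15834 and 15619.8. CTSD, which encodes cathepsin D, read 14438, 12267 and 11262. PDZK1, a scaffold protein, read 14874, 5479 and 6204. GREB1, a cofactor of the receptor, read 4576, 2281 and 2382 with all 3 probes present, and TFF1 read 1238, 1414 and 1415. MYC and CCND1, which drive cell cycle entry, read 3843, 3846 and 4169 (MYC) and 2048, 1988 and 1934 (CCND1). CXCL12, PDZK1, STC2, GREB1 and SIAH2 were higher on array 1 than on both other arrays, and AREG, a ligand of the EGF receptor, was lower, at 2605, 7066 and 7574.

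Of 18 progesterone- and androgen-responsive genes, 16 were present (88.9%, against 69.7% of all protein-coding genes). FASN, fatty acid synthase, read 8389, 9055 and 9108. The glucocorticoid- and progestin-responsive genes TSC22D3 and FKBP5 read 3806, 2302 and 2352 (TSC22D3) and 667, 742 and 782 (FKBP5). TMPRSS2 read 526, 314 and 284. The prostate kallikreins were at the edge of detection, KLK2 at 14.4, 20.7 and 21.6 and KLK3 on a part of the arrays only. TNFSF11, which encodes RANK ligand, the paracrine signal of progesterone in mammary gland, was not well above background by either probe. SGK1, a kinase induced by corticosteroids, read 288, 57.8 and 54.1, about 5-fold apart between array 1 and the others.

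Of 22 enzymes of steroid and thyroid hormone metabolism on the array, 10 were present (45.5%, against 69.7% of all protein-coding genes). HSD17B1, which converts estrone to estradiol, read 2078, 1518 and 1411. HSD17B12, HSD17B4 and HSD17B8, whose main substrates include fatty acids, had the highest signals, HSD17B12 from 2 of 5 probes. The reductases SRD5A1 and SRD5A3 read 145, 180.2 and 159.6 (SRD5A1) and 182, 157 and 154 (SRD5A3), and steroid sulfatase, STS, read 185, 41.3 and 49.7, highest on array 1. Aromatase, CYP19A1, was not well above background by any of 4 probes, nor were the estrogen sulfotransferase SULT1E1, the steroid dehydrogenases HSD3B1 and HSD3B2, or the deiodinases DIO1, DIO2 and DIO3.

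Peptide hormone receptors gave 16 present, 1 mixed and 17 not well above background of 34, and the share present was 47.1%, against 69.7% of all protein-coding genes. PRLR, the prolactin receptor, read 11286, 8729 and 9675 with all 3 probes present. LEPR, the leptin receptor, read 24170.4, 20439.7 and 23397 from its brightest probe, but 189, 229.9 and 218 from the second and 81.4, 86.03 and 87.6 from the third, and the fourth was not well above background. GHR, the growth hormone receptor, read 2059, 2400.3 and 2498, and the somatostatin receptor SSTR2 read 3158, 1573 and 1465. IGF1R read 2894, 2385 and 2351, INSR read 87.7, 43.6 and 42.1, and both were highest on array 1. CALCR, the calcitonin receptor, read 148, 67.4 and 61.1. The gonadotropin receptors FSHR and LHCGR, the thyrotropin receptor TSHR, GLP1R and GCGR were not well above background.

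The study concerns a noncoding RNA beside the parathyroid hormone gene, so the parathyroid hormone family was listed too. PTH itself, the receptors PTH1R and PTH2R, the calcium sensor CASR and the parathyroid factor GCM2 were not well above background, each by 1 probe. PTHLH, the related hormone that many tumors secrete, was well above background on a part of the arrays, at 14.96, 14.2 and 12.8. PTH2, the ligand of PTH2R, was present at 192, 217 and 187, and GNAS, the stimulatory G protein alpha subunit that these receptors use, read 104799.7, 106673 and 105499.5, with all 5 probes present.

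Of 58 receptor tyrosine kinase genes, 35 were present, 1 was mixed and 22 were not well above background. The share present was 60.3%, against 69.7% of all protein-coding genes, and the median over the 58 was 6.28, against 8.0. All 4 members of the EGF receptor family were present. ERBB2, which encodes HER2, read 4361, 4318 and 4069 (mean log2 12.05 ± 0.05, SD, n = 3). ERBB3, its kinase-impaired partner, read 3035, 3442 and 3735, and ERBB4 read 1763, 1558 and 1665. The dimmest ERBB3 probe was well above background on 1 array only, and the second ERBB4 probe on no array. EGFR read 80.7, 143 and 155, from 1 of 3 probes, with array 1 below the others. A second ERBB2 probe, nearer the start of the gene, read 95.03, 153 and 121, so the level depends on the probe chosen.

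LMTK3 and RYK had the highest signals of the list, 5838, 4856 and 4823 (LMTK3) and 4719, 5192 and 5344 (RYK). The fibroblast growth factor receptors were all present: FGFR3 read 3987, 5445 and 5474, FGFR1 read 1555, 574 and 610.0, FGFR2 read 330.1, 419 and 441 and FGFR4 read 171, 156 and 179. The collagen receptor DDR1 read 4330.1, 5060.4 and 4935, whereas its relative DDR2 was not well above background. MST1R, receptor of macrophage-stimulating protein, read 1695, 1731 and 1941, and its ligand gene MST1 read 3501, 1523 and 2334. RET, an estrogen-responsive receptor, read 139, 143 and 116. MET, the hepatocyte growth factor receptor, read 83.3, 118 and 101.1, and AXL read 123, 159 and 143. Of the ephrin receptors, 4 of 5 of the B class and 3 of 9 of the A class were present. KIT, PDGFRA, PDGFRB, CSF1R, FLT3, KDR, TEK, TIE1, ALK, ROS1, NTRK2, MERTK and ROR1 were not well above background, KIT and ROR1 by 3 probes each.

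**Figure D4:**
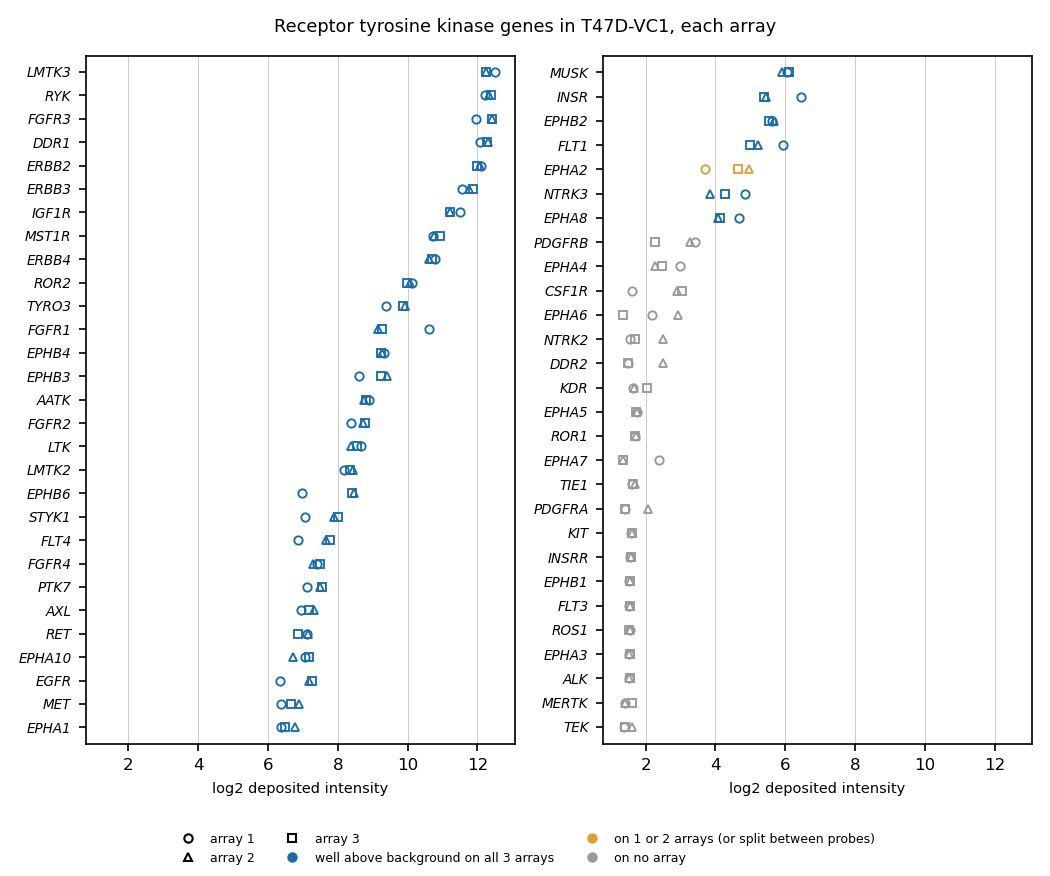
Log2 deposited intensity (horizontal axes) of 57 receptor tyrosine kinase genes on arrays 1 (circles), 2 (triangles) and 3 (squares), ordered by mean and colored by detection. Blue genes were present on all 3 arrays and 21 gray genes on none, and FGFR1 is the gene with array 1 farthest to the right.

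Of 33 ligand genes of these receptors, 18 were present (54.5%, against 69.7% of all protein-coding genes) and 14 were not well above background. VEGFB read 16645, 13239 and 12274 and VEGFA read 1228, 824 and 957. AREG was followed among EGF-type ligands by TGFA at 765, 597 and 582 and EGF at 133, 185 and 212, and HBEGF lay near the limit at 20.6, 22.03 and 26.1. KITLG, the ligand of KIT, read 6010.1, 3977 and 4172 although KIT itself was not well above background. Of the neuregulins, NRG4 was present at 23.9, 32.2 and 40.3. NRG1, NRG2 and NRG3, EREG, HGF, IGF1, FGF2, FGF7 and INS were not well above background.

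Downstream, 29 of 31 genes of the PI3K, RAS and MAPK pathways were present (93.5%, against 69.7% of all protein-coding genes). PIK3CG was not well above background. The catalytic subunit gene PIK3CA read 701, 756 and 821, and AKT1 and AKT2 read 3103, 3651 and 4011 (AKT1) and 2260.5, 2108 and 1989 (AKT2). HRAS and NRAS read 2203, 1964 and 2083 (HRAS) and 615, 710.4 and 648 (NRAS).

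Of 15 genes of interferons and their receptors, 7 were present (46.7%, against 69.7% of all protein-coding genes). Of these, 6 were the receptor chains on the list. IFNGR1 and IFNGR2 read 768, 762 and 692 (IFNGR1) and 751, 915 and 864 (IFNGR2). IFNAR1 read 706, 369.7 and 373 and IFNAR2 read 100.03, 106.8 and 115, the latter present by 2 of 3 probes. The interferons themselves were not well above background, IFNB1, IFNG, IFNA2, IFNL1, IFNL3, IFNE, IFNK and IFNW1, with the exception of IFNL2 at 30.8, 24.4 and 28.4, whose sequence is close to that of IFNL3. Of the 20 genes of the JAK, STAT and IRF families, 17 were present (85%, against the same 69.7%). All 4 Janus kinases were, JAK1 at 1112, 1221 and 1197, JAK2 at 135, 119 and 135, JAK3 at 1739.8, 2776 and 2432 and TYK2 at 225, 179 and 189. A second JAK3 probe read only 15.4, 45.7 and 29.8, so the level of JAK3 depends on the probe chosen. STAT6 read 12243, 6939 and 7084, STAT2 read 5479, 4301 and 4874 and STAT3 read 481, 508 and 490.5, while STAT4 and the lymphoid and myeloid factors IRF4 and IRF8 were not well above background. IRF9, the DNA-binding partner in the interferon-activated complex, read 183, 222 and 181.

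Of 35 interferon-stimulated genes, 26 were present, 2 were mixed and 7 were not well above background. Their share of 74.3% stood near the 69.7% of all protein-coding genes, and their median of 7.11 lay under 8.0. BST2, tetherin, read 10329, 14506 and 14418. IFITM3, IFITM2 and IFITM1, membrane proteins that block virus entry, read 4199, 4563 and 4041 (IFITM3), 3293, 4674 and 4060.2 (IFITM2) and 2632, 2788 and 2200.1 (IFITM1), and their similar sequences allow probes to share targets. MX1 read 921, 1229.9 and 1044, ISG15 read 1099, 621 and 516 and IFIT1 read 520.1, 544 and 558. The cytosolic RNA sensors RIGI and IFIH1 read 1663, 869.6 and 871 (RIGI) and 638, 569 and 566 (IFIH1). At the lower end IFIT3 read 61.6, 26.2 and 32.4 and OAS1 was present on a part of the arrays. IFI44, IFI44L, RSAD2, XAF1, EPSTI1, SAMD9 and TRIM22 were not well above background. ISG15, RIGI, OASL and IFIT3 were highest on array 1, and BST2, MX2 and OAS2 were lowest there.

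Among 32 interleukin and gp130 receptors, 22 were present, and their share of 68.8% stood near the 69.7% of all protein-coding genes. IL6ST, which encodes the shared chain gp130, read 5556, 2785 and 3079.7, with all 7 probes present. IL13RA1 and IL4R, a receptor pair, read 3017, 3333 and 3050.3 (IL13RA1) and 1478, 1376 and 1426 (IL4R). OSMR, the oncostatin M receptor, read 1291, 1661 and 1448, and LIFR was not well above background. The interleukin-17 receptor genes were all present, led by IL17RA at 1481, 1647 and 1527. IL6R was low, at 38.4, 43.5 and 41.4, from 1 of 2 probes.

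Of 36 WNT receptors and ligands, 19 were present (52.8%, against 69.7% of all protein-coding genes). Frizzled receptors were present in 7 of 10 cases, FZD4 at 2870.4, 3290.4 and 3449 being the highest, and WNT ligands in 6 of 19. Of the ligands that were present, WNT3 at 166, 103.1 and 104.0 and WNT10B at 63.9, 168 and 155 had the highest signals. WNT5A, WNT5B, WNT1 and the stem cell receptor LGR5 were not well above background, whereas LGR4 read 1156, 1036 and 1093. In the NOTCH and hedgehog pathways 14 of 25 genes were present (56%, against 69.7% of all protein-coding genes). All 4 NOTCH receptors were, with NOTCH3 at 11161, 8723 and 8503 and NOTCH2 at 3780.1, 4749 and 4618, against 242, 151 and 182 for NOTCH1. The hedgehog ligands SHH, IHH and DHH and the receptor PTCH1 were not well above background, although SMO read 830.1, 1033 and 959.8 and GLI3 read 1271, 1286 and 1198.

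In the TGF-beta group 23 of 34 genes were present, a share of 67.6% near the 69.7% of all protein-coding genes. All 8 SMAD genes were present, SMAD4 at 1453, 1228 and 1273 and SMAD3 at 203, 223 and 191. TGFBR1 read 96.9, 205 and 197, and TGFBR2, the type II receptor that binds the ligand first, was well above background on 1 array only, at 17.6, 3.48 and 8.88 from its brighter probe. GDF15, a stress-induced member, read 11414, 4234 and 3919, and the inhibin subunit INHBB read 2285, 4987 and 4711. The first was highest on array 1 and the second lowest. Of 20 adrenergic, prostaglandin, thromboxane and bradykinin receptors, 9 were present (45%, against 69.7% of all protein-coding genes). PTGER4 and PTGER3, receptors of prostaglandin E, read 6263, 6553 and 6769.6 (PTGER4) and 3200.2, 3283 and 3388 (PTGER3), and ADRA2C read 5809.8, 1813 and 1665.

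Of 26 cell cycle genes, 24 were present, all but CDKN2B and CCND2 (92.3%, against 69.7% of all protein-coding genes). CCNB1 read 10977, 19587 and 19066 and PCNA, the replication clamp, read 9245, 12712 and 13081. CDK4 and RB1 read 6692, 7062 and 6692 (CDK4) and 3805, 3621 and 3616 (RB1), and CDKN2A, an inhibitor of CDK4, read 5496, 6121 and 5518. MKI67, the gene of the Ki-67 antigen, read 305, 428 and 467. CDKN1A, which encodes the p21 inhibitor, read 174, 147 and 130.0. The housekeeping list was present in full, 16 of 16, from EEF1A1 at 157178, 182688 and 168890.4 to TBP at 493, 489.8 and 514.

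Whole families gave a frame for these counts, set beside the 69.7% of all protein-coding genes that were present. The 82 cytosolic and 77 mitochondrial ribosomal protein genes were all present, as were all 45 complex I genes, and 37 of 39 proteasome genes were. ZNF genes were present in 436 of 498 cases (87.6%). Solute carriers were present in 253 of 382 (66.2%), near the share of all protein-coding genes. At the other end stood bitter taste receptors, with 1 of 25 present (4%), olfactory receptors with 24 of 357 (6.72%), and beta-defensins with 3 of 33 (9.09%). Of 30 MAGE, GAGE and SSX genes, which are normally silent outside the germline, 8 were present (26.7%). By chromosome, the share of protein-coding genes present ran from 58.8% on X to 81.1% on chromosome 16.

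Over the present genes the median SD was 0.17 on the log2 scale, and 93.4% had an SD under 0.5. Arrays 2 and 3 lay closer to each other than to array 1. The median absolute log2 difference was 0.10 between arrays 2 and 3, 0.26 between arrays 1 and 2, and 0.24 between arrays 1 and 3. Genes over 2-fold apart numbered 64, 829 and 716 for the same pairs. Each array came from a different slide, and array 1 was scanned in another run than arrays 2 and 3, so culture, labeling, slide and scan cannot be told apart in these differences.

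In each of the 20 protein-coding genes with the largest SD, array 1 lay apart from the other arrays. AGT, angiotensinogen, read 524, 27.7 and 24.997. CGNL1, a junction protein, read 7582, 679.9 and 638, and GPER1, a membrane receptor that responds to estrogen, read 4195, 412 and 369 with all 4 of its probes present. In each of the 3 genes array 1 was more than 10-fold above the other arrays. CITED1, CYP1A1, KCNE4 and CRH were also high on array 1, CYP1A1, a target of the aryl hydrocarbon receptor, at 566, 95.1 and 76.8 and CRH, corticotropin-releasing hormone, at 2759, 468 and 448. In the other direction XAGE1B read 166, 1041 and 994 and ACOX2 read 551, 3008 and 2757. In all, 275 genes on array 1 lay more than 2-fold above, and 225 more than 2-fold below, a pair of other arrays that were within 0.5 log2 of each other, and the same count in either direction was 20 for array 2 and 11 for array 3.

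Among all present protein-coding genes, array 1 was the highest of the 3 for 41.3% and the lowest for 45.5%, and the median of array 1 minus the mean of the others was -0.02. In the cell cycle list it was the lowest for 19 of 24 present genes, with a median difference of -0.48. CCNA2, cyclin A, read 819, 1778 and 1678, and AURKB, a mitotic kinase, read 359, 764 and 741. In the estrogen-responsive list array 1 was the highest for 13 of 20 genes, with a median difference of 0.21, and STC2, a secreted glycoprotein, read 3392, 1509 and 1637. In the peptide hormone receptor list it was the highest for 12 of 16, with a median difference of 0.27. The highest medians of the 32 lists were those of adrenergic and prostaglandin receptors (0.54, highest for 6 of 9), steroid and thyroid hormone enzymes (0.37, highest for 6 of 10) and HOX genes (0.36, highest for 12 of 20). The housekeeping list had a median difference of -0.12. These counts describe 1 array against 2 of the same line, with no other T47D-VC1 array from array 1's scan run, and carry no test.

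**Figure D5:**
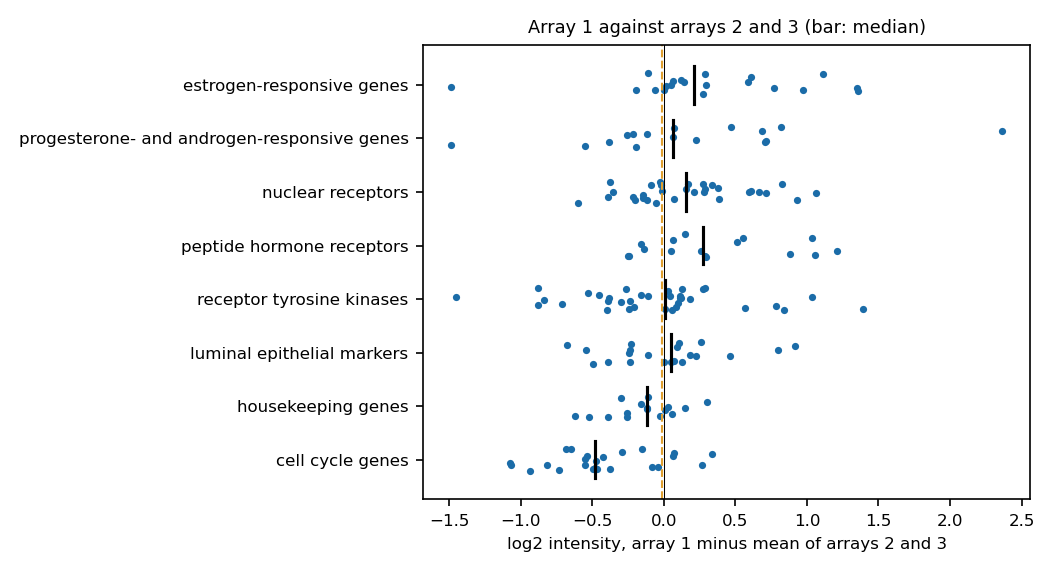
Log2 intensity of array 1 minus the mean of arrays 2 and 3 (horizontal axis) for the present genes of 8 lists, 1 point per gene, with a bar at the median of the list, a thin line at 0 and a dashed line at the median of all present protein-coding genes (-0.02). The cell cycle list lies to the left, with a median of -0.48, and the estrogen-responsive and peptide hormone receptor lists lie to the right, with medians of 0.21 and 0.27.

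Several probes for a gene did not always agree. Of 6381 protein-coding genes with several probes, 5014 were present, 1659 of them by some and not all of their probes. Of the 485 list members present, 182 had several probes, and 75 were present by a part of them, among them MYC and MYB, each by 1 of 2. Across CXCL12, for example, the 4 probes read 40355, 15834 and 15619.8 (the brightest), 5228, 2082 and 2286 (the next), 1745, 786 and 637 and, for the dimmest, 25.7, 8.64 and 14.1, and array 1 was the highest by each of them.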

How the data were processed

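RNA of T47D-VC1 was measured on 3 single-color arrays. The authors quantified the spots with Agilent Feature Extraction (version 9.5.1.1 per the submitters' processing notes, 10.7.1.1 per the file headers) and deposited both the spot intensities, background-subtracted within each array, and a table of intensities quantile-normalized over the 9 arrays, 1 value per probe. Quantile normalization gives every array the same distribution, so differences in total signal are removed. Here the deposited table was taken to the log2 scale. Each array holds 62976 spots, 60901 of them not controls, for 58201 probes. Outlier spots (49 to 57 per array) gave no detection call, and 0 spots were saturated. Between 44.9% and 47.0% of the probes were well above background on an array, and the lowest deposited value so marked was 11.0 to 14.3. Precision rests on the number of arrays, here 3.

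Probe names were brought up to date with the RefSeq gene table (GRCh38.p14), through the symbol (31127 probes), an accession (3343) or a synonym (496), 34966 in all, and 23235 probes kept the name in the files. Probe positions are hg19, as in the array design. The genes named are the 25 present named genes with the highest mean log2 value and the members of 32 lists, 806 genes of which 801 are on the array. Genes named for their spread between arrays were chosen after their values were seen. The members and lists were chosen with earlier results of these data known. No groups were compared and no significance test was made. The code that makes the detection calls was checked on simulated data. Alternatives were other detection flags and limits, other normalizations, other rules for several probes, and each array left out in turn. Arrays of the other lines entered only through the authors' normalization. Tools were Python 3.11.15, pandas 2.3.3, R 4.3.3 and limma 3.58.1. Results for some genes are not reported here.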

Additional observations from a re-analysis of the deposited data

How the results depend on the processing

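The number of present genes, 19317, ranged from 17563 under a stricter filter on dim probes to 23799 with Feature Extraction's flag for a positive and significant signal, and all the alternatives lay within 1.5 times of it. With each array left out in turn it was 19422 to 19898. Genes not well above background on any array numbered 21604, 14493 against the 99th percentile of negative control spots, 21840 to 22277 with each array left out, and 10574 with the positive and significant flag. That flag and the percentile set lower limits by construction, so the genes said here not to be well above background include many with a weak signal. Of the list members, 485 were present, with 446 to 558 under the alternatives and 485 to 497 with an array left out. Of the 32 lists, the count moved by over 1.5 times for basal markers (10 by the positive and significant flag), mesenchymal markers (9 by that flag and by the negative control percentile), factors of other tissues (14 by that flag) and blood and endothelial markers (4 under the stricter filter). Of the first 25 genes, 24 stayed with a 75th percentile shift of the spot signals, 25 with quantile normalization over the 3 arrays alone, 20 with normexp, 25 without the detection filter and 22 to 23 with an array left out, but 13 when a gene was given the mean of its probes in place of its brightest. No paired analysis was possible because no groups were compared. What depth means here is signal over background: genes near the limit of 11.0 to 14.3 change call with the flag used.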
